A study of Mus musculus with 4 samples.

Results

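Interferon-induced effector genes are the transcripts through which interferons make cells resistant to viruses and other intracellular microbes. A list of 40 such mouse genes was followed on 4 Agilent arrays that compare granulocyte precursors lacking miR-223 with wild-type ones. Members were chosen by name, as array spots other than controls whose gene name equals a listed symbol, and each gene was read from its brightest probe. Of the 40 symbols, 39 were found among 28149 gene names on the array, and 36 were bright enough to be tested, against 16582 tested genes in all. The symbol without a match was Irgm, and Oas1g, Ifi44 and Ifi205 were too dim. Bone marrow cells of male C57BL/6 mice, miR-223 KO or wild type, were cultured over 4 days with GM-CSF at 40 ng/ml, a growth factor of myeloid cells, and the expanding immature granulocytes were then isolated by sorting. There were 2 miR-223 KO arrays and 2 wild-type arrays, each hybridised with Cy3-labelled RNA of 1 culture sample. The labels name no other allele or treatment. They give neither age nor how the KO was made, and they do not say whether replicates came from separate animals, so that p-values measure only the spread between these samples, which may be technical.

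Type I interferons signal through a receptor of the Ifnar1 and Ifnar2 chains and the kinases Jak1 and Tyk2 to transcription factors, Stat2 and Irf9 among them, that act at interferon-stimulated response elements (ISRE) in the promoters of antiviral genes. Interferon gamma signals through its own receptor to gamma-activated sites (GAS) and induces, among others, GTPases that attack the vacuoles of intracellular microbes. miR-223 is a microRNA of the myeloid lineage that restrains genes of granulocyte production and activation.

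The deleted microRNA is shown for reference with its seed, bases 2 to 8, in capitals, as given by RefSeq for GRCm38.p6 on chromosome X. No array probe was named for it, so its loss could not be checked on these arrays.
mmu-miR-223-3p (chrX:96242884-96242905, + strand): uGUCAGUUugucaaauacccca

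Promoter windows of 250 bases before to 50 bases after the transcript start were present in RefSeq (GRCm38.p6) for 31 members. The ISRE-like letters GAAANNGAAA, or TTTCNNTTTC on the other strand, occurred in the windows of 19 of them (61.3%), against 3.99% of 27025 genes with a window. The GAS-like letters TTCNNNGAA, which read the same on both strands, occurred in 8 (25.8%), against 9.55% of all genes. Matches may overlap each other, a gene counts if any of its windows holds one, and a match is a description of the letters and not a binding site. Stretches from 150 bases before to 30 after the start are printed for the 3 Ifitm genes, of which Ifitm1 had the largest difference of the module, for Isg15, which holds 3 overlapping matches, and for Ifi203, the member with the lowest difference, with ISRE-like matches in capitals.
Ifitm1 (chr7:140967926-140968105, + strand): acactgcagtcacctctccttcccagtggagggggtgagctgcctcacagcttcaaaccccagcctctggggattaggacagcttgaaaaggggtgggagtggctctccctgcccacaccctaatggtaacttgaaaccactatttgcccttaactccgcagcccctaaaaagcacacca
Ifitm2 (chr7:140955932-140956111, - strand): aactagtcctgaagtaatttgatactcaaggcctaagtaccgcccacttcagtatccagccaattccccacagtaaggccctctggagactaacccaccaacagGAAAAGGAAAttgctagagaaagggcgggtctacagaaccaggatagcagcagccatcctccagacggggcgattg
Ifitm3 (chr7:141010715-141010894, - strand): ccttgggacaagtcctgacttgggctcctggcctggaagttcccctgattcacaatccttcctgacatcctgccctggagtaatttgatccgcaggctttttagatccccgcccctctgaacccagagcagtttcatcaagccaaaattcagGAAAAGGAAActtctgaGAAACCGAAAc
Isg15 (chr4:156200789-156200968, - strand): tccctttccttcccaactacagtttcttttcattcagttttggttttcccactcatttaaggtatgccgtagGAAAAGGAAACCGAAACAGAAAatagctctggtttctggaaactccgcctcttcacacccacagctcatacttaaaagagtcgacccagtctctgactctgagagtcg
Ifi203 (chr1:173942463-173942642, - strand): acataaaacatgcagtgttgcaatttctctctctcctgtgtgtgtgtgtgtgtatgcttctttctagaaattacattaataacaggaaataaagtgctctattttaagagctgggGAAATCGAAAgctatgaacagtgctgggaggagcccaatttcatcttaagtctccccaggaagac
The printed stretch of Ifitm1 and its whole window held no ISRE-like match, whereas the match of Ifitm2 began at position -46 and those of Ifitm3 at positions 3 and 20 after the start. Ifi203 had a further window, for another start, without an ISRE-like match, and the window with a match is the one printed. Of the members with a window and a test, 17 had an ISRE-like match. Their median log2 difference was 0.21 (10 higher and 7 lower in miR-223 KO). The 11 without one had a median of 0.06 (7 higher and 4 lower). The ranges overlapped, from -0.86 to 0.73 with a match and from -0.60 to 1.67 without one, and no test between them was made. The tested members Mx1, Mx2, Rtp4, Ifi204, Oas2, Usp18, Zbp1 and Dhx58 had no window and are in neither group.

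The module did not move in one direction in the absence of miR-223. All values are log2 levels with each array's 75th percentile at 0, differences are miR-223 KO minus wild type, and each ± gives the moderated standard error of limma (n = 2 arrays per genotype). Of 36 tested members, 21 were higher (58.3%, against 54.8% of all tested genes) and 15 lower in miR-223 KO. Their median difference was 0.16, against 0.03 over all tested genes. None passed an adjusted p of 0.05 (limma, Benjamini-Hochberg over 16582 genes), where the background over all genes was 0% as well. At an unadjusted p under 0.05, 8 members were higher and 4 lower, against 8.03% and 5.55% of all tested genes. The genotypes did not overlap for 66.7% of the tested members, against 48.1% of all tested genes. Of these, 16 members were higher and 8 lower in miR-223 KO, against 28% and 20.1% of all tested genes, and the other 12 members overlapped. The count of members under the unadjusted threshold depended on single arrays and on the filter. If wild-type replicate 1 was left out, it was 6 of 36 (16.7%), against 17.1% of all tested genes. If miR-223 KO replicate 2 was left out, it was 6 of 36 as well, against 6.49% of all tested genes. Without the filter on dim probes it was 7 of the same 36, against 6.62% of all genes. The median was 0.10 if replicate 2 of either genotype was left out.

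The sorted cells carried granulocyte transcripts, and most macrophage, dendritic cell and mast cell markers were lower in miR-223 KO, although no marker passed an adjusted p of 0.05 (limma). All 15 granulocyte markers on the array were well above background on every array, and 13 were higher in miR-223 KO, with a median of 0.26. Mpo (-0.43) and Camp (-0.18) were lower. The genotypes did not overlap for 46.7% of the granulocyte list, near the 48.1% of all tested genes. Of 17 macrophage and monocyte markers, 15 were lower in miR-223 KO, with a median of -1.07. The genotypes did not overlap for 76.5% of this list, against 48.1% of all tested genes. Csf1r, Cd68, Cd14 and Cx3cr1 overlapped, with differences of -0.19 to -0.09. Ly6c1 (0.47 ± 0.13) and Emr1, which RefSeq calls Adgre1 (0.75 ± 0.24), were higher in miR-223 KO. The summed log2 level of the list was 7.48 and 7.68 in miR-223 KO, against 7.27 and 7.38 in wild type. This sum was set mainly by the bright Ly6c1. Of 14 tested dendritic cell markers, 13 were lower, with a median of -0.49 and a summed level of 7.52 and 6.95 in miR-223 KO, against 7.47 and 7.58 in wild type. That list includes Bst2, itself a member of the module. Siglech, a marker of plasmacytoid dendritic cells, which are strong producers of type I interferon, had a difference of -1.75 ± 0.53. Its signal was dim, and it was well above background on 3 arrays only. Of 8 tested mast cell and basophil markers, 7 were lower, with a median of -1.30 and a summed level of 4.81 and 4.30 in miR-223 KO, against 5.22 and 5.45 in wild type. The 8 tested T, NK and B cell markers had a median of 0.04 (5 higher and 3 lower), and the 6 tested eosinophil markers one of -0.01 (3 higher and 3 lower). In such bulk RNA, fewer cells of a type and less RNA per cell cannot be told apart. The part of these cells in the differences of Ifi203, Ifi204, Gbp3, Bst2 and the other members was not tested.

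**Figure D1:**
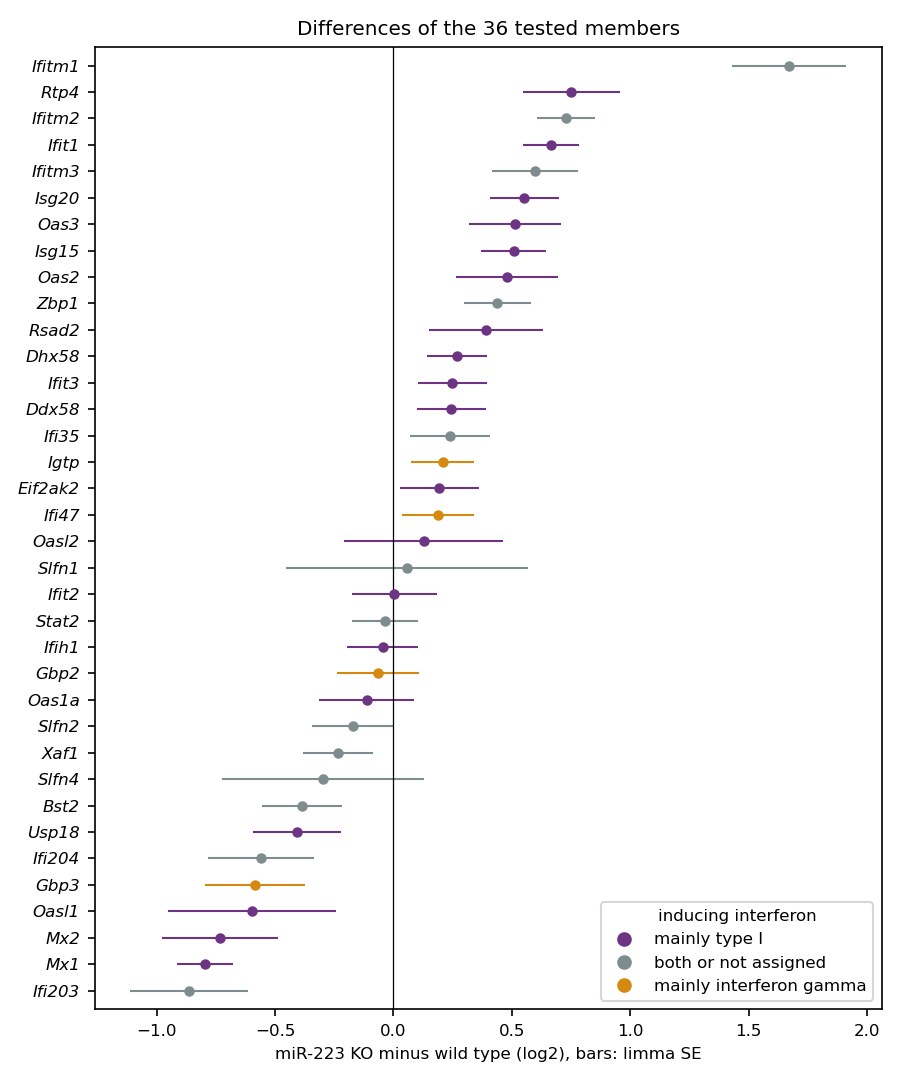
Log2 difference, miR-223 KO minus wild type, of the 36 tested members, ordered from highest to lowest. Bars give limma's standard error (n = 2 arrays per genotype), and colour gives the interferon assigned by hand as the main inducer of the gene. Ifitm1 stands at 1.67, above all other members, and the other members lie between -0.86 and 0.75.

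Among the Ifitm genes, which encode small membrane proteins that block virus entry, Ifitm1 had the largest difference of the module. Ifitm1 was at 7.27 and 7.50 on the miR-223 KO arrays, against 5.42 and 6.00 on the wild-type arrays. This is a log2 difference of 1.67 ± 0.24 (3.18-fold; adjusted p = 0.24, limma), with every miR-223 KO array above every wild-type array. The probe reads chr7:148155455-148155514 (mm9). Ifitm2 was at 4.91 and 4.98 in miR-223 KO, against 4.19 and 4.25 in wild type, a difference of 0.73 ± 0.12 (1.66-fold; adjusted p = 0.24, limma). Its arrays within a genotype were close and the genotypes did not overlap, and a second probe gave 0.54. Ifitm3 was at 6.02 and 6.37 in miR-223 KO, against 5.48 and 5.71 in wild type (0.60 ± 0.18, 1.51-fold; adjusted p = 0.32, limma), again without overlap. Probes of these paralogues may read more than 1 of them, which was not tested. Bst2, which encodes tetherin, a protein that holds budding viruses at the cell surface, lay the other way, at 3.04 and 2.70 in miR-223 KO, against 3.19 and 3.32 in wild type (-0.38 ± 0.17; adjusted p = 0.42, limma), and without miR-223 KO replicate 2 its difference was -0.22.

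Other genes of the Ifitm family, looked up after these values were seen, differed among themselves. Ifitm7 was at 6.81 and 7.02 in miR-223 KO, against 5.67 and 5.93 in wild type, a difference of 1.11 ± 0.16 (adjusted p = 0.24, limma). Ifitm6 was at 6.74 and 7.25 in miR-223 KO, against 6.51 and 7.07 in wild type (0.20 ± 0.28; adjusted p = 0.78, limma), and its arrays interleaved. Ifitm5 was dim, with a difference of 1.45 ± 0.72, and was well above background on 3 arrays.

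**Figure D2:**
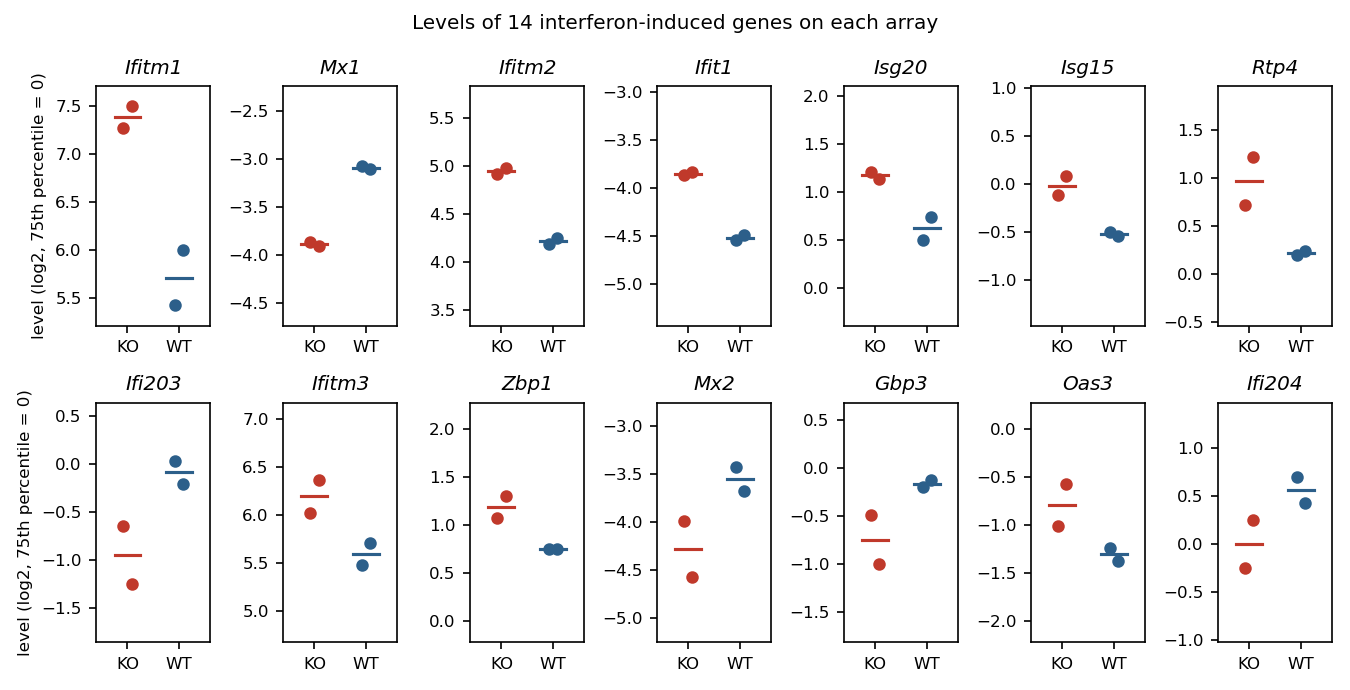
Log2 levels (75th percentile of the array at 0) of the 14 members with the smallest p or the largest separated differences, each dot an array, bars the mean of the 2 arrays per genotype, miR-223 KO (KO, red) left of wild type (WT, blue). Each panel spans the same height of the log2 scale. The genotypes do not overlap in the 14 panels, which the choice of genes by small p or by separation favours. Of all tested genes, 48.1% do not overlap either.

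Among genes that type I interferon mainly induces, Ifit1, Isg15, Isg20 and Rtp4 were higher in miR-223 KO on all arrays. Ifit1, whose protein binds foreign RNA caps and stops their translation, was at -3.87 and -3.83 in miR-223 KO, against -4.54 and -4.49 in wild type (0.66 ± 0.12, 1.59-fold; adjusted p = 0.25, limma). The genotypes were well apart in this setting, but the signal was dim, and with normexp background correction the difference was 0.20. Ifit3, also dim, had a smaller difference of 0.25 ± 0.15, which was 0.10 with normexp. Ifit2 had one of 0.00 ± 0.18, with a second probe at 0.24. Isg15, a ubiquitin-like protein that is attached to other proteins, was at -0.11 and 0.09 in miR-223 KO, against -0.50 and -0.54 in wild type (0.51 ± 0.14, 1.42-fold; adjusted p = 0.30, limma). Usp18, which removes Isg15 from proteins and damps the type I receptor, lay the other way at -2.24 and -1.93 in miR-223 KO, against -1.53 and -1.83 in wild type (-0.41 ± 0.19; adjusted p = 0.43, limma). Neither gene overlapped between genotypes. The difference of Usp18 was -0.25 without miR-223 KO replicate 1 and -0.26 without wild-type replicate 1.

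Isg20, an exonuclease that degrades RNA, was at 1.21 and 1.14 in miR-223 KO, against 0.50 and 0.74 in wild type (0.55 ± 0.15, 1.47-fold; adjusted p = 0.29, limma), and a second probe gave 0.56. Rtp4, a receptor transport protein, was at 0.72 and 1.22 in miR-223 KO, against 0.20 and 0.24 in wild type (0.75 ± 0.21, 1.68-fold; adjusted p = 0.30, limma). Both genes were apart between genotypes, and for Rtp4 the miR-223 KO arrays lay farther from each other than the wild-type arrays. Rsad2, which encodes the antiviral radical enzyme viperin, was at -2.67 and -2.37 in miR-223 KO, against -3.19 and -2.64 in wild type, and overlapped (0.39 ± 0.24). Its other probes, which were dim, gave -0.26 and 0.23. Eif2ak2, the double-stranded RNA kinase PKR, had a difference of 0.19 ± 0.17 with overlap. Ifi35, a regulator of innate signalling, had one of 0.24 ± 0.17, and Xaf1, a partner of a caspase inhibitor, one of -0.23 ± 0.15.

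The Mx genes, which encode dynamin-like GTPases that trap viral nucleoproteins, were the type I genes with the lowest differences. C57BL/6 mice are known to carry a defective Mx1 allele, so that its transcript need not give a working protein. Mx1 was at -3.87 and -3.90 in miR-223 KO, against -3.08 and -3.10 in wild type (-0.80 ± 0.12, 0.58-fold; adjusted p = 0.24, limma), and a second probe gave -0.70. Mx2 was at -4.00 and -4.58 in miR-223 KO, against -3.43 and -3.68 in wild type (-0.73 ± 0.24, 0.60-fold; adjusted p = 0.34, limma). Neither gene overlapped between genotypes. Both signals were dim, and with normexp background correction the differences were -0.41 for Mx1 and -0.31 for Mx2. Without miR-223 KO replicate 2 the difference of Mx2 was -0.44.

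The oligoadenylate synthetase family, whose enzymes make the second messenger that activates the nuclease RNase L, was split. Oas3 was at -1.01 and -0.57 in miR-223 KO, against -1.23 and -1.37 in wild type (0.51 ± 0.20, 1.43-fold; adjusted p = 0.37, limma). The genotypes were apart for this probe, but a second probe gave -0.03 and the mean over both probes gave 0.24. The brighter probe gave 0.31 with normexp background correction and 0.29 without miR-223 KO replicate 2. Oas2 was at 0.42 and 0.93 in miR-223 KO, against 0.13 and 0.27 in wild type (0.48 ± 0.22), with a second, dimmer probe at 0.64. Without miR-223 KO replicate 2 the difference of Oas2 was 0.22. Oasl1, which in mice restrains translation of Irf7, was at -4.73 and -3.94 in miR-223 KO, against -4.05 and -3.43 in wild type (-0.60 ± 0.35). Its arrays overlapped between genotypes and differed widely within each, and the difference was -0.99 to -0.20 with 1 array left out and -0.25 with normexp. Oas1a (-0.11 ± 0.20) and Oasl2 (0.13 ± 0.34) also overlapped, and Oas1g did not stand well above background on any of the 4 arrays.

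Among the sensors of foreign nucleic acid, Ddx58, Dhx58 and Zbp1 were higher in miR-223 KO without overlap. Of the RNA helicases, Ddx58, which encodes RIG-I, was at 0.26 and 0.50 in miR-223 KO, against 0.09 and 0.19 in wild type (0.24 ± 0.15), and its 3 other probes gave 0.32 to 0.99. Dhx58, which encodes the related regulator LGP2, was at -0.01 and 0.12 in miR-223 KO, against -0.21 on both wild-type arrays (0.27 ± 0.13), with a second, very dim probe at -0.48. Ifih1, which encodes MDA5, had a difference of -0.05 ± 0.15 with overlap. The smallest adjusted p of a helicase was 0.44 (limma), for Dhx58, although the genotypes were apart for Ddx58 and Dhx58. Zbp1, a sensor of Z-form nucleic acid that can start necroptosis, was at 1.07 and 1.30 in miR-223 KO, against 0.75 on both wild-type arrays (0.44 ± 0.14, 1.36-fold; adjusted p = 0.33, limma).

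Of the Ifi200 genes of chromosome 1, which encode DNA-binding proteins of the PYHIN family, Ifi203 and Ifi204 were lower in miR-223 KO, though neither passed the test. Ifi203 was at -0.65 and -1.25 in miR-223 KO, against 0.04 and -0.21 in wild type (-0.86 ± 0.25, 0.55-fold; adjusted p = 0.31, limma), and its 3 other, dimmer probes gave -1.02 to -0.75. The probes at -1.02 and -0.75 overlapped between genotypes and were not well above background on all 4 arrays. The genotypes were apart for the brightest probe, and without miR-223 KO replicate 2 its difference was -0.56. Ifi204 was at -0.25 and 0.25 in miR-223 KO, against 0.70 and 0.43 in wild type (-0.56 ± 0.22, 0.68-fold; adjusted p = 0.39, limma), with other probes at -0.52 and -0.27. The genotypes did not overlap for the brightest probe, but they did for the probe at -0.27. Without miR-223 KO replicate 1 the difference of the brightest probe was -0.31. Another gene of the family outside the list, which the array calls Mnda and RefSeq Ifi211, was at 0.16 and 0.31 in miR-223 KO, against 1.13 and 1.22 in wild type (-0.94 ± 0.13; adjusted p = 0.24, limma). Neither probe of Ifi205 stood well above background, on any of the 4 arrays, and Ifi202b, looked up afterwards, did so on 1 array and was not tested. Probes of these close paralogues may not tell them apart, which was not tested.

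The tested members that interferon gamma mainly induces showed small differences except for Gbp3. Gbp3, a guanylate-binding protein of the defence against vacuolar microbes, was at -0.49 and -1.01 in miR-223 KO, against -0.20 and -0.13 in wild type (-0.58 ± 0.21, 0.67-fold; adjusted p = 0.36, limma). The genotypes were apart, but the difference was -0.33 without miR-223 KO replicate 2. Gbp2, its neighbour on chromosome 3, was at 0.21 and -0.13 in miR-223 KO, against 0.19 and 0.03 in wild type (-0.07 ± 0.17). The immunity-related GTPases Igtp (0.21 ± 0.13) and Ifi47 (0.19 ± 0.15) were slightly higher in miR-223 KO on both arrays. Irgm is listed by RefSeq as an older name of Irgm1, which is therefore given here without being counted. It was at 1.04 and 0.86 in miR-223 KO, against 1.14 and 0.74 in wild type, a difference of 0.01 ± 0.19.

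The Schlafen genes, regulators of growth and quiescence of immune cells, overlapped between genotypes. Slfn1 was at -1.72 and -1.02 in miR-223 KO, against -2.08 and -0.78 in wild type (0.06 ± 0.51). Slfn4, a Schlafen gene of myeloid cells, was at -1.90 and -1.06 in miR-223 KO, against -1.62 and -0.74 in wild type (-0.30 ± 0.43). In both genes the arrays of a genotype lay farther apart than the means of the genotypes. Slfn2 was at 4.16 and 4.50 in miR-223 KO, against 4.42 and 4.58 in wild type (-0.17 ± 0.17). Stat2, the transducer that is specific to type I and type III receptors, was at 1.14 and 1.18 in miR-223 KO, against 1.31 and 1.09 in wild type (-0.04 ± 0.14). Ifi44, an interferon-induced protein of unclear function, was well above background on 1 of 2 miR-223 KO arrays and on neither wild-type array, so that no fold is given. Its second probe was well above background on 1 wild-type array and on neither miR-223 KO array.

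The inducing interferon of each gene was assigned by hand and not measured here, and the medians of these groups depend on that assignment. By that assignment, the 19 tested genes mainly under type I interferon had a median difference of 0.24. Of these, 13 were higher and 6 lower in miR-223 KO. The 4 genes mainly under interferon gamma had a median of 0.06, with 2 in each direction. The 13 genes induced by both, or not assigned, had a median of -0.04, with 6 higher and 7 lower. The ranges of the 3 groups overlapped, from -0.80 to 0.75, from -0.58 to 0.21 and from -0.86 to 1.67, and no test between them was made. The median size of a difference, without sign, was 0.39 over the members and 0.18 over all tested genes. The miR-223 KO arrays also lay farther apart for the members, with a median gap of 0.28, against 0.15 over all tested genes, while the wild-type arrays had median gaps of 0.22 and 0.21. In miR-223 KO, replicate 2 was above replicate 1 for 26 of 36 members, against 7123 of 16578 genes measured on all arrays. This held for 15 of the 19 type I genes and 0 of the 4 interferon gamma genes.

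**Figure D3:**
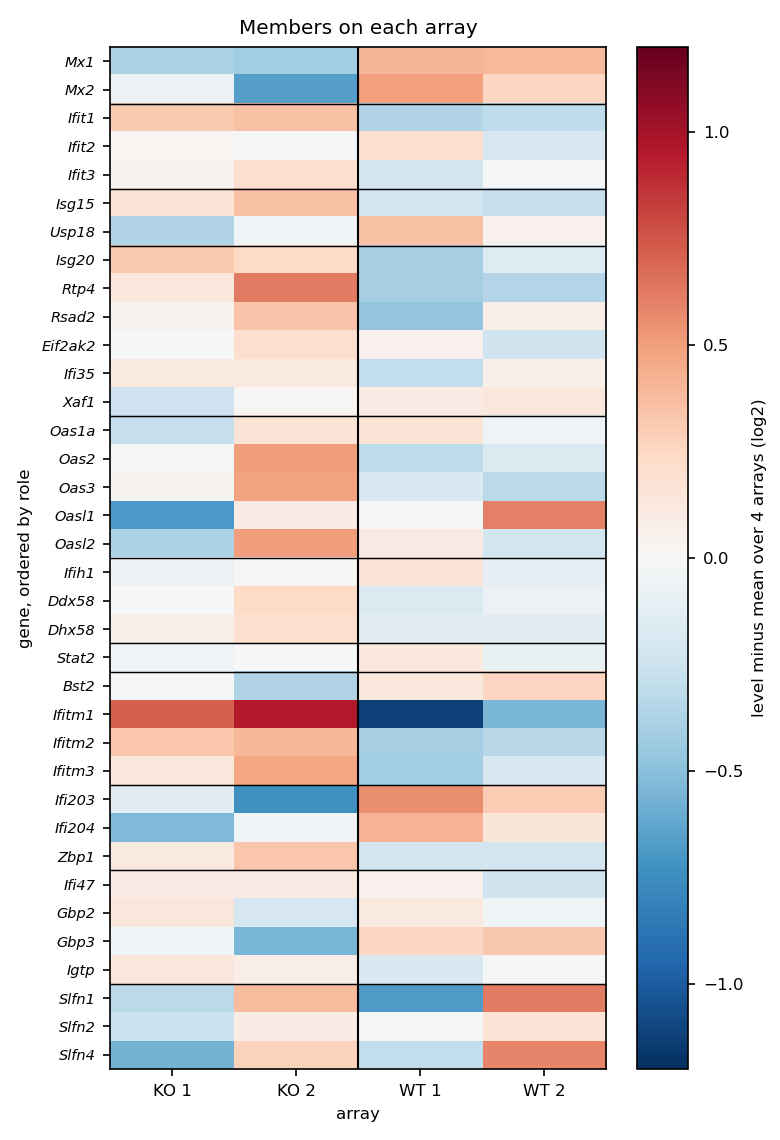
Level of each tested member on each array minus its mean over the 4 arrays (log2, red above and blue below the mean), genes ordered by role with lines between roles, miR-223 KO arrays left of wild-type arrays. The Ifitm rows are red in miR-223 KO and the Mx, Ifi203 and Ifi204 rows blue or pale there, while the rows of Slfn1 and Slfn4 differ more within than between genotypes.

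Of the genes upstream of the module, none passed after adjustment (limma). Of 17 listed interferon genes 13 were on the array and 5 were tested, the dim Ifna2, Ifna9, Ifna13, Ifnab and Ifnz, with differences of 0.16 to 0.59. Ifnb1 and Ifng did not stand well above background on any of the 4 arrays. Of 9 receptor chains and kinases, 8 were higher in miR-223 KO, with a median of 0.24. The chain of the type III interferon receptor that the array calls Il28ra was at 2.14 and 2.50 in miR-223 KO, against 1.75 and 1.62 in wild type (0.63 ± 0.17). Ifngr1 had a difference of 0.32 ± 0.12, Ifnar2 one of 0.34 ± 0.16 and Il10rb, a chain shared by type III interferon and interleukin-10 receptors, one of 0.24 ± 0.13. Among 8 transcription factors, Irf8, a factor of monocyte and dendritic cell development, was at 0.98 and 0.36 in miR-223 KO, against 1.86 and 1.71 in wild type (-1.11 ± 0.25). Irf7, the main amplifier of type I interferon, was at -0.43 and 0.04 in miR-223 KO, against -0.86 and -0.65 in wild type (0.56 ± 0.21). Irf5, a factor of Toll-like receptor signalling, had a difference of -0.39 ± 0.20.

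Of 8 feedback genes, 7 were higher in miR-223 KO with a median of 0.11, and Socs3, an inhibitor of Jak signalling, was the exception at -0.47 ± 0.13. Ptpn1, a phosphatase of Jak kinases, had a difference of 0.38 ± 0.12, Cish, another cytokine signalling inhibitor, one of 0.33 ± 0.13 and Socs1 one of 0.55 ± 0.47. Of 12 tested genes of nucleic acid sensing, 6 were higher and 6 lower, from -0.15 for Mavs to 0.37 for Tlr9, a DNA receptor.

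Interferon-induced genes outside the module also lay in both directions. Of 43 tested genes in a further list, 29 were higher and 14 lower in miR-223 KO, with a median of 0.11. Parp9, a factor of DNA repair and antiviral signalling, had a difference of 0.84 ± 0.17, whereas Phf11 (Phf11a in RefSeq) had one of -1.09 ± 0.21, beside Mnda given above. A gene of the Ifit cluster, Gm14446 on the array and Ifit1bl1 in RefSeq, had a difference of -0.55 ± 0.13. Of 25 further genes under interferon gamma, 8 were higher and 17 lower, with a median of -0.13. Serpina3g, a protease inhibitor, was at 3.85 and 3.62 in miR-223 KO, against 2.78 and 2.62 in wild type (1.03 ± 0.15), and Gbp8 had a difference of -0.99 ± 0.19. The transcription factor gene Batf2 had one of -0.74 ± 0.20 and Tap1, a peptide transporter of antigen presentation, one of -0.49 ± 0.20. None of these genes passed after adjustment (smallest adjusted p = 0.24, limma), and these lists were written with results of these data known.

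**Figure D4:**
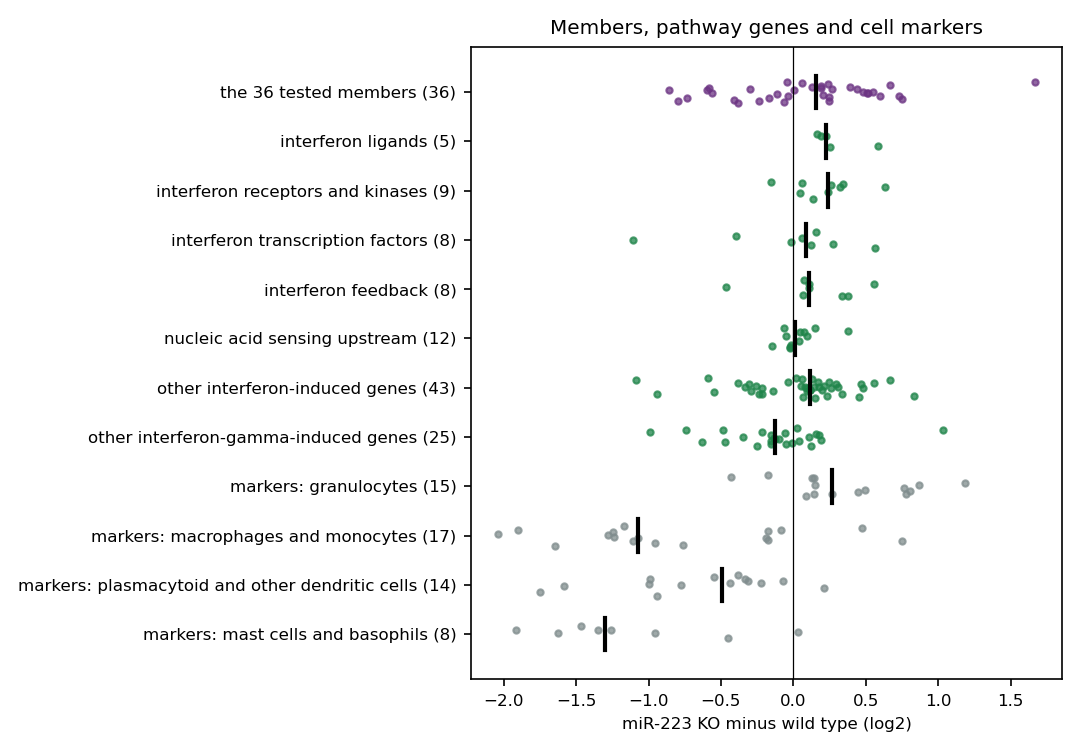
Log2 differences, miR-223 KO minus wild type, of the 36 tested members (purple), pathway lists (green) and markers of cell types (grey), each dot a gene and each black bar the median, with the number of tested genes in brackets. The members have a median of 0.16, and the marker lists of macrophages, dendritic cells and mast cells have medians of -1.07, -0.49 and -1.30.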

How the data were processed

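RNA of 4 culture samples was read on 1-colour (Cy3) Agilent arrays of design 014868. The intensity values per spot were made with Agilent Feature Extraction 10.5.1.1, per the file headers, with spatial and multiplicative detrending and surrogate values for dim spots. The authors' deposited log2 values, whose processing is not given in the sources used here, equal the log2 intensity plus a constant per array (99.8% of values within 0.01) and served as an alternative.

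Control spots and outlier flags were left out, spots of a probe averaged, and each array's 75th percentile of log2 intensity over 41174 probes subtracted. These percentiles were 514 and 493 in miR-223 KO, against 586 and 486 in wild type, and no spot was saturated. Gene names are those of the array, and probe coordinates are mm9. A gene was tested if its probe stood well above background in both replicates of either genotype, with limma 3.58.1 (lmFit, eBayes, two-sided) in R 4.3.3, adjusted by Benjamini-Hochberg over all tested genes. The method was tested on simulated data with independent normal noise. The spreads of the genes were shuffled there, so that dim genes did not keep their own. Precision is limited by the small number of arrays, with a median standard error of 0.16 over all genes.

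Members and lists were chosen with earlier results of these data known. Values per array are given for the 12 members with the smallest p and any with separated arrays and a difference of at least 0.5, and up to 4 genes of each other list. Further genes were named after their values were seen. Alternatives were normexp, quantile scaling, the authors' values, 2 other filters, the mean over probes, leaving out each array and a replicate block. Sites of miR-223 were not analysed here, and 1 gene of the transcription factor list is not reported here.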

Additional observations from a re-analysis of the deposited data

How the results depend on the processing

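No member passed an adjusted p of 0.05 (limma) under any of the 11 alternatives, and 26 of 36 kept their direction in all of them. Over all genes, 0 of 16582 passed in the reported setting (2252 at an unadjusted p under 0.05), 5 with normexp background correction (Mgam, Mt2, Orm1, Orm2 and Serpinb10) and 1 with the authors' values (Btg4), none of them a member and all named after their values were seen. The median of the members was 0.10 to 0.21 when 1 array was left out, where a lone array is assumed to vary like the other genotype. Differences changed sign for Dhx58 with the mean of all probes (-0.11) and for Ifit2 with normexp (-0.02), and the cause was not tested. With 1 array left out, the range was -0.34 to 0.00 for Slfn2, -0.74 to 0.14 for Slfn4, -0.59 to 0.71 for Slfn1, -0.33 to 0.11 for Oas1a, -0.31 to 0.57 for Oasl2, -0.23 to 0.10 for Gbp2, -0.18 to 0.09 for Ifih1, -0.15 to 0.07 for Stat2 and -0.20 to 0.21 for Ifit2. The differences nearest 0 were 0.12 for Rsad2, 0.13 for Ddx58 and Igtp, 0.15 for Ifit3, 0.06 for Ifi35, 0.05 for Ifi47 and Eif2ak2 and -0.11 for Xaf1. Samples share only a replicate number: deviations of same-numbered arrays correlated at 0.18 across genes, and with the replicate block 0 genes and 0 members passed, with a member median of 0.16. Dim signals limit Mx1, Mx2, Ifit1, Ifit3 and Oasl1 most.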
